A study of Mus musculus with 12 samples.

Results

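The nuclear genes for the subunits of the mitochondrial respiratory chain and ATP synthase were compared between TREM-1+ airway eosinophils and the TREM-1- eosinophils of the same lavage. The gene Trem1 encodes TREM-1, a surface receptor that activates myeloid cells. The genes were chosen by symbol alone: rows of the count table named Nduf (complex I), Sdh (II), Uqcr or Cyc1 (III), Cox (IV) or Atp5 (V), followed by a short subunit suffix. Cox4i1, Cox4i2, Ndufab1, Ndufa4l2 and Atpif1 do not match this pattern and were kept apart. The rule found 83 of 39666 genes, of which 37 belonged to complex I, 4 to complex II, 9 to complex III, 16 to complex IV and 17 to complex V. The filter on low counts left 78 of them for testing, and the 5 that were left out were all isoforms of complex IV subunits.

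All libraries came from C57BL/6 wild-type mice aged 8 to 12 weeks. Sensitization was with 20 µg ovalbumin in 4 mg alum on days 0 and 7, nebulized 1% ovalbumin followed for 40 minutes a day on days 16 to 18, and lavage fluid was collected on day 19. Each pooled lavage was sorted for Siglec-F+ CD11b+ cells of high side scatter, and these were split by surface TREM-1, with 6 TREM-1- and 6 TREM-1+ libraries as the outcome. Total RNA was depleted of ribosomal RNA before sequencing. There was no group without allergic inflammation, and a pool may mix mice. The labels do not say that the 6 pools came from separate mice, and the p-values therefore cover only how far these pools spread.

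Complexes I to IV pass electrons from NADH and succinate to oxygen. Complexes I, III and IV pump protons across the inner mitochondrial membrane as they do so, and complex V, the ATP synthase, uses the returning protons to make ATP. Complexes I, III, IV and V also hold subunits encoded in the mitochondrial genome, whereas complex II is wholly nuclear. The count table had 0 mitochondrial genome genes, so what follows covers the nuclear share only. Eosinophils are known as granulocytes that keep working mitochondria beside active glycolysis.

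Total counts ran from 16513387 to 21234053 in the TREM-1- libraries and from 8626701 to 19274912 in the TREM-1+ libraries. The lowest total was that of the TREM-1+ library of lavage 4. It also had the highest TMM scaling factor of the 12 libraries (1.13), and its TREM-1- pair had the lowest (0.922). The part of this pair's depth and scaling in the dependence on lavage 4 given below was not tested. Trem1 itself, which checks the sort, lay between 18.4 and 42.1 CPM (counts relative to the library's scaled total) in TREM-1- and between 73.5 and 130.7 CPM in TREM-1+. Of 11 eosinophil markers all were detected (6 called lower and 3 higher in TREM-1+), with a summed level of 4462 to 6883 CPM among TREM-1- libraries and 4335 to 6574 CPM among TREM-1+ libraries. The libraries of lavages 1 and 2 stood close together within each fraction (chi-square per gene of 5.26 and 6.88, against 20.6 or more for every other pair of libraries), and whether they are independent pools is uncertain. Summed T cell markers (7 genes) were higher in the TREM-1+ library of 6 of 6 lavages, at 8.72 to 95.5 CPM against 7.38 to 51.1 CPM, with no marker at 0 throughout. Summed neutrophil markers (12 genes, Elane at 0 in every library) were lower in TREM-1+ in 6 of 6 lavages, at 1453 to 2444 CPM against 1761 to 2582 CPM. Retnlg made up most of that sum (1603 ± 236 CPM in TREM-1-, 1244 ± 251 CPM in TREM-1+), and it and Mmp9 were the 2 markers called lower. The other 6 of the 8 tested were called higher, each in 6 of 6 lavages, and the median log2 fold change of the 8 was 0.86. Summed macrophage markers (15 genes, none at 0 throughout) were 1031 to 1522 CPM among TREM-1- libraries and 1115 to 1659 CPM among TREM-1+ libraries, higher in 4 of 6 lavages. Adgre1, which eosinophils also express, made up most of that sum (983 ± 194 and 875 ± 157 CPM, called lower), whereas 3 of the 9 tested were called higher, among them Cd68 (5.11 ± 1.90 and 8.16 ± 3.55 CPM) and Fn1 (25.9 ± 27.5 and 69.3 ± 65.3 CPM), and 8 of 9 lay above 0. Of the 7 T cell markers 5 were called higher. Of the B cell and epithelial markers 3 each were tested and 0 called. The part of these other cells in the results below was not tested.

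Respiratory chain genes differed little between the fractions, and where a difference passed the test it was a lower level in TREM-1+ cells. With edgeR's quasi-likelihood test and lavage as a block, 7 of 78 genes (8.97%) had a Benjamini-Hochberg adjusted p below 0.05. These were Ndufa1 and Ndufb1 of complex I, Uqcrfs1 and Uqcrh of complex III, Cox8a and Cox7a2l of complex IV, and Atp5d of complex V. All 7 were lower, against 6.72% of all 18302 genes tested, and 0 were higher, against 3.1%. In either direction 9.82% of all genes were called, so the share of respiratory chain genes called was near that of the transcriptome. At an unadjusted p below 0.05 the counts were 13 lower and 0 higher (all genes 11.4% and 8.32%). DESeq2 and limma-voom also called 7 lower and 0 higher (all genes 6.93% and 6.98% lower). Among genes with a mean of at least 5 CPM, 9.59% of respiratory chain genes were called lower, against 11.5% of all genes. In bulk samples, fewer cells of a type and less RNA per cell cannot be told apart.

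These calls depended on the lavages and on the scaling. Leaving out lavage 4 left 3 calls (3.85% of the 78, against 5.55% of all genes called lower). Leaving out lavage 2 or lavage 5 left 4 (5.13%, all genes 5.38% and 6.23%). Leaving out lavages 3 and 4 together left 2 (2.56%, all genes 5.15%), and lavages 3 to 6 alone gave 3 (3.85%, all genes 4.3%). In each of these settings the share of respiratory chain genes called lower was below that of all genes. It was above that of all genes without lavage 1 (6.41% against 5.31%), lavage 3 (6.41% against 6.08%) or lavage 6 (8.97% against 5.61%). In lavages 1 and 2 alone it was also above, at 10.3% against 6.16%. With scaling to library totals alone, which moved the median of all genes to 0.13, 1 gene was called lower (Cox8a, against 2.05% of all genes) and 1 higher (Atp5o, against 10.3%); of all calls 16.7% were then lower, against 68.4% with TMM scaling.

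The log2 fold changes (TREM-1+ minus TREM-1-) of the 78 genes had a median of -0.06, beside 0.004 for all genes tested. This sign held only relative to other genes: with library totals alone the median was 0.069, below the 0.13 of all genes. The values ran from -0.38 to 0.24, and 52 lay below 0 and 26 above. Their spread was narrower than that of all genes tested, with an SD of 0.14 against 0.30. They were also read more deeply, at a median of 16.4 against 8.31 CPM, and the median standard errors were 0.10 and 0.14. The part of depth in the spread was not tested. For 66 of the 78 the 95% interval lay within 0.5 of 0 on the log2 scale, and for 78 of 78 it excluded a doubling or halving of the level. Over all genes tested these counts were 10059 and 15121 of 18302. In 6 of 6 lavages 8 genes were lower in TREM-1+ (8.31% of all genes were) and 0 were higher (5.08% of all genes were). For 0 of the 78 were the libraries of the fractions fully separated (0.951% of all genes were).

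**Figure D1:**
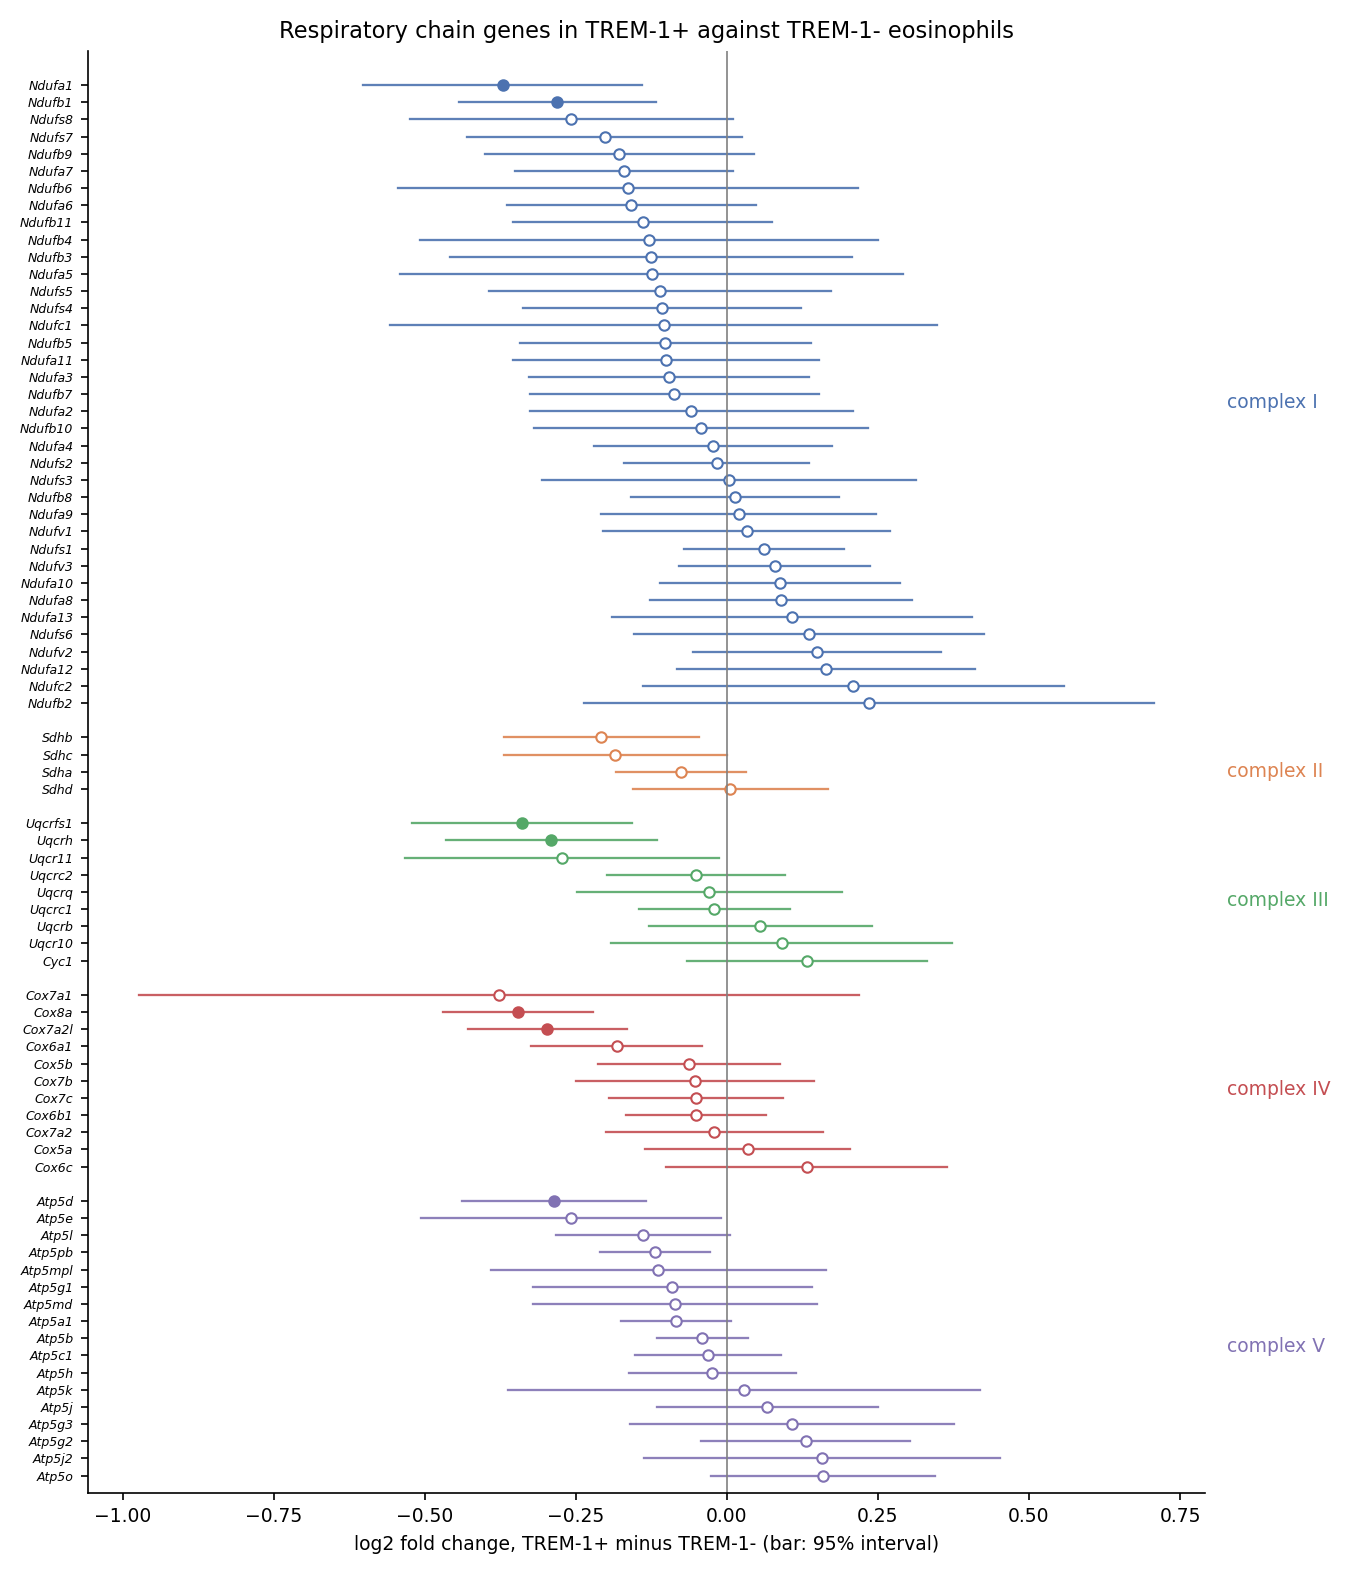
Log2 fold change (horizontal axis, TREM-1+ minus TREM-1-, TMM scaling) of each of the 78 tested genes, ordered within complexes I to V; bars are 95% intervals and filled points are the 7 genes called by edgeR. The filled points all lie between -0.37 and -0.28, and most other intervals cross 0.

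Complex I takes electrons from NADH. Where a pair of levels is given below, TREM-1- comes first. Of its 37 genes 2 were called lower, and their median log2 fold change was -0.09. Both called genes encode small accessory subunits of the membrane arm. Ndufa1 had 10.7, 13.7 and 16.9 CPM (lowest, median, highest of 6) among TREM-1- libraries and 9.14, 10.1 and 14.1 CPM among TREM-1+ libraries. The TREM-1+ library of lavage 1 was high, at 14.1 CPM, and the other 5 lay between 9.14 and 10.8 CPM. The fractions overlapped, and within each lavage TREM-1+ was the lower one. Its log2 fold change was -0.37 ± 0.11 (SE, n = 6 pairs, edgeR adjusted p = 0.0313), and the adjusted p was 0.0539 to 0.143 without lavage 1, 2, 3, 4 or 5. Ndufb1 had 35.2, 41.3 and 48.5 CPM among TREM-1- libraries and 22.5, 37.1 and 47.2 CPM among TREM-1+ libraries, a log2 fold change of -0.28 ± 0.08 (edgeR adjusted p = 0.0202). Its difference came mostly from lavages 3 and 4, at -0.64 and -0.66 on the log2 CPM scale, whereas lavages 1 and 6 differed by -0.02 and -0.04. Without lavages 3 and 4 its adjusted p was 0.408 and its log2 fold change -0.12, and without lavage 3, 4 or 5 alone the adjusted p was 0.0772, 0.111 or 0.0577.

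The 35 other genes of complex I did not pass the test. The 7 core subunits of the matrix arm, which hold the flavin and the iron-sulfur clusters, had a median log2 fold change of 0.003 (range -0.26 to 0.15, 3 below 0). The lowest of them was Ndufs8, an iron-sulfur subunit, at 11.1 ± 2.44 CPM (SD, n = 6) among TREM-1- libraries and 9.18 ± 1.53 CPM among TREM-1+ libraries (log2 fold change -0.26, edgeR adjusted p = 0.28). Ndufs1, the large iron-sulfur subunit, had 35.3 ± 1.72 CPM and 36.8 ± 2.20 CPM, with a 95% interval of the log2 fold change from -0.07 to 0.19. The 9 accessory subunits of the matrix arm had a median of -0.06. Among them Ndufa7 was lower in TREM-1+ in 6 of 6 lavages (20.5 ± 3.51 against 18.2 ± 3.46 CPM), yet its adjusted p was 0.292. The 20 accessory subunits of the membrane arm, with both called genes among them, had a median of -0.10, with 14 below 0. The highest estimate of the complex, 0.24 for the membrane arm subunit Ndufb2, rested on 3.37 ± 1.37 and 3.83 ± 0.60 CPM and had an interval from -0.24 to 0.71. Ndufa4, whose symbol places it here although its product is now counted with complex IV, had 18.8 ± 4.00 and 18.4 ± 2.83 CPM (log2 fold change -0.02, adjusted p = 0.942).

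Complex II, the succinate dehydrogenase that also works in the tricarboxylic acid cycle, had 0 of 4 genes called. Sdhb, its iron-sulfur subunit, came nearest, with 26.2, 30.1 and 39.1 CPM (lowest, median, highest) among TREM-1- libraries and 24.8, 26.5 and 29.8 CPM among TREM-1+ libraries. It was lower in 5 of 6 lavages, with a log2 fold change of -0.21 ± 0.08 (edgeR adjusted p = 0.105). Sdhc, a membrane anchor, had -0.18 (adjusted p = 0.253), and the flavoprotein Sdha had 80.8 ± 10.2 CPM against 76.5 ± 5.99 CPM (-0.08, adjusted p = 0.488). The other anchor, Sdhd, had 26.1 ± 5.09 and 26.3 ± 5.85 CPM, a log2 fold change of 0.01 with an interval from -0.16 to 0.17.

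Complex III hands electrons from ubiquinol to cytochrome c. Of its 9 genes 2 were called lower, with a median log2 fold change of -0.03. Uqcrfs1 encodes the Rieske iron-sulfur protein, a catalytic subunit. It had 18.0, 21.9 and 27.0 CPM (lowest, median, highest) among TREM-1- libraries and 12.7, 18.4 and 23.8 CPM among TREM-1+ libraries, lower in 6 of 6 lavages with overlapping fractions. The log2 fold change was -0.34 ± 0.09 (edgeR adjusted p = 0.0098). Uqcrh, the acidic hinge protein next to cytochrome c1, had 23.2, 27.9 and 32.8 CPM among TREM-1- libraries and 16.0, 24.7 and 27.2 CPM among TREM-1+ libraries, also lower in 6 of 6 lavages. Its log2 fold change was -0.29 ± 0.09 (adjusted p = 0.0246), of which lavage 4 gave the largest paired difference, -0.82, and lavage 3 the smallest, -0.05. Without lavage 4 its adjusted p was 0.157, and without lavage 1, 2 or 5 it was 0.0802, 0.0526 or 0.0545. The other catalytic nuclear subunit, cytochrome c1 (Cyc1), had the highest estimate of the complex, at 18.8 ± 2.64 CPM among TREM-1- libraries and 20.7 ± 3.78 CPM among TREM-1+ libraries (0.13, interval -0.07 to 0.33, adjusted p = 0.521). The 2 core proteins Uqcrc1 and Uqcrc2 had log2 fold changes of -0.02 and -0.05. The small subunit Uqcr11 was lower in 6 of 6 lavages but missed the threshold (-0.27 ± 0.13, adjusted p = 0.22), at 9.59 ± 2.19 and 7.97 ± 2.03 CPM.

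Complex IV, cytochrome c oxidase, reduces oxygen. Of its 11 tested genes 2 were called lower, and their median was -0.05. Cox8a encodes the widely expressed form of a small membrane-spanning subunit. It had 46.5, 56.0 and 81.3 CPM (lowest, median, highest) among TREM-1- libraries and 34.8, 48.2 and 71.0 CPM among TREM-1+ libraries. It was lower in 6 of 6 lavages, by 0.17 to 0.56 on the log2 CPM scale, while the fractions overlapped. Lavages 1 and 2 were high in TREM-1-, and lavage 1 was high in TREM-1+. The log2 fold change was -0.35 ± 0.06 (edgeR adjusted p = 0.000106), the smallest adjusted p of the 78 genes. Cox7a2l, also called SCAF1, is known for joining complexes III and IV into supercomplexes, a role not tested in these C57BL/6 mice. It had 67.1, 86.6 and 116.4 CPM among TREM-1- libraries and 53.7, 71.2 and 96.2 CPM among TREM-1+ libraries, with a log2 fold change of -0.30 ± 0.06 (adjusted p = 0.0025). It was lower in 5 of 6 lavages, lavage 4 being level at 67.1 and 67.7 CPM.

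The other tested complex IV genes were not called. Cox6a1 came nearest, with 23.5, 33.7 and 50.3 CPM among TREM-1- libraries and 18.7, 30.7 and 45.5 CPM among TREM-1+ libraries, lower in 5 of 6 lavages (-0.18 ± 0.07, edgeR adjusted p = 0.105). Cox6b1, which faces the intermembrane space, had 55.3 ± 7.00 and 53.2 ± 2.66 CPM (log2 fold change -0.05, interval -0.17 to 0.07). Cox5a and Cox5b, matrix-facing subunits, had 0.03 and -0.06, and Cox6c had 0.13 (adjusted p = 0.607). Cox4i1, the main isoform of the largest nuclear subunit, falls outside the symbol rule. It was called lower, with 43.7, 54.5 and 74.9 CPM among TREM-1- libraries and 35.0, 49.3 and 60.6 CPM among TREM-1+ libraries, lower in 6 of 6 lavages (-0.21 ± 0.06, edgeR adjusted p = 0.0145, and 0.0603 to 0.081 without lavage 1, 2, 4 or 6).

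**Figure D2:**
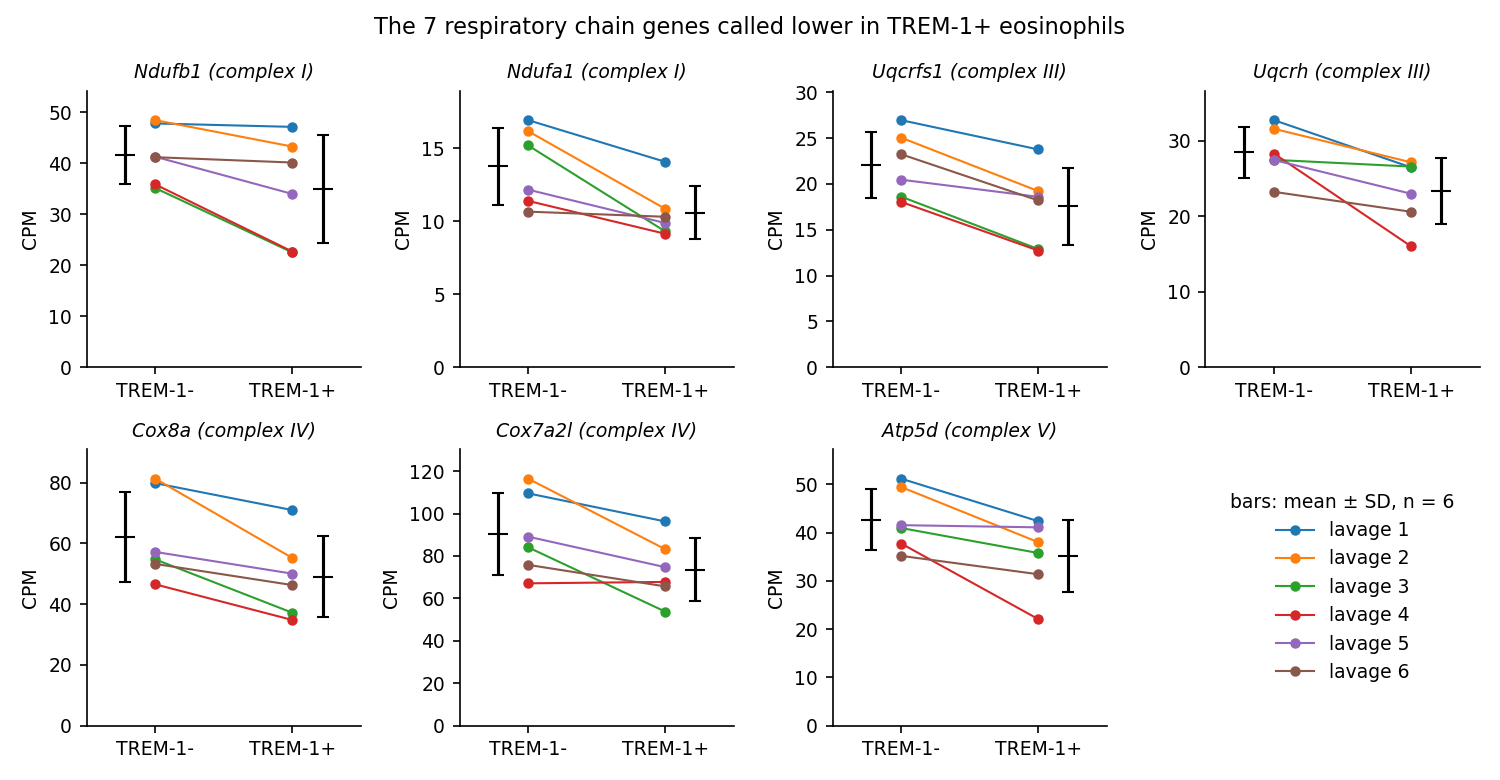
CPM (vertical axes, from 0) of the 7 genes called lower, with a line for each of the 6 lavages joining its TREM-1- and TREM-1+ library; black bars are means ± SD. Lines fall in every lavage but for Cox7a2l in lavage 4, and the levels of the fractions overlap in all 7 panels.

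Isoforms known from muscle, testis or low oxygen were at or near 0, apart from Cox7a1. Cox6a2 and Cox8b, known from heart and skeletal muscle, had 6 and 75 counts over all 12 libraries, whereas Cox8c had 0, which allows up to 3 counts in all. Cox7b2 and Cox6b2, known from testis, had 26 and 82 counts. Cox4i2 and Ndufa4l2, outside the rule and known as isoforms raised by low oxygen, had 37 and 10 counts. The muscle isoform Cox7a1 passed the filter, at 2.44 ± 0.71 CPM among TREM-1- libraries and 1.85 ± 0.58 CPM among TREM-1+ libraries. Its estimate of -0.38 was the lowest of the 78 but had an interval from -0.97 to 0.22 (edgeR adjusted p = 0.55). Cox7a2, the widely expressed counterpart, had 27.0 ± 5.51 and 26.6 ± 5.64 CPM (-0.02, adjusted p = 0.94).

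Complex V had 1 of 17 genes called, and its median log2 fold change was -0.04. The called gene was Atp5d, the delta subunit of the rotating central stalk. It had 35.2, 41.2 and 51.2 CPM (lowest, median, highest) among TREM-1- libraries and 22.1, 36.9 and 42.3 CPM among TREM-1+ libraries, lower in 6 of 6 lavages with overlapping fractions. The log2 fold change was -0.29 ± 0.07 (edgeR adjusted p = 0.00939), and lavage 4 gave the largest paired difference, -0.77, against -0.02 in lavage 5. Without lavage 4 the adjusted p was 0.0746, and without lavage 2 it was 0.0526. Its stalk partner Atp5e, the epsilon subunit, was measured at 12.5 ± 4.49 and 10.3 ± 2.83 CPM (-0.26 ± 0.12, adjusted p = 0.228). Atp5b, the catalytic beta subunit, had 157.9, 176.7 and 255.6 CPM among TREM-1- libraries and 162.9, 175.7 and 232.3 CPM among TREM-1+ libraries, with an interval of the log2 fold change from -0.12 to 0.03. The alpha subunit Atp5a1 had 163.4 ± 28.6 and 153.2 ± 14.5 CPM (-0.08, adjusted p = 0.311).

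The membrane and peripheral stalk subunits of complex V had 0 calls. Of these the peripheral stalk gene Atp5pb had the smallest adjusted p of the 71 respiratory chain genes not called, 0.0977, with a log2 fold change of -0.12 ± 0.04 (95.7 ± 20.4 CPM in TREM-1-, 87.9 ± 17.6 CPM in TREM-1+, lower in 5 of 6 lavages). Atp5o, which ties the stalk to the head, had the highest estimate, 0.16 ± 0.09 (20.0 ± 3.35 and 22.4 ± 3.97 CPM, adjusted p = 0.357). The c ring, which turns as protons pass, is encoded by 3 genes for the same mature peptide: Atp5g1 had a log2 fold change of -0.09, Atp5g2 0.13 and Atp5g3 0.11 (adjusted p from 0.445 to 0.76). The inhibitor of the enzyme, named Atpif1 in the table and outside the rule, had 7.25 ± 1.75 and 8.71 ± 1.66 CPM (0.27, adjusted p = 0.313).

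Summed by complex, the nuclear transcripts were compared as paired log2 ratios of the sums (mean ± SD over 6 lavages), which were -0.05 ± 0.07 in complex I, -0.10 ± 0.15 in complex II, -0.07 ± 0.08 in complex III, -0.14 ± 0.13 in complex IV and -0.06 ± 0.10 in complex V. The complex I sum was 528 ± 73.6 CPM among TREM-1- libraries and 509 ± 52.7 CPM among TREM-1+ libraries, and that of complex II 160 ± 21.5 and 149 ± 15.6 CPM. Complex III summed to 215 ± 32.6 and 204 ± 27.0 CPM. Complex IV, where the mean ratio was farthest from 0, summed to 404 ± 78.2 and 365 ± 56.5 CPM. That sum holds the called genes Cox7a2l (means of 90.3 and 73.5 CPM) and Cox8a (62.2 and 49.1 CPM). Complex V summed to 779 ± 149 and 744 ± 104 CPM. The sums were lower in TREM-1+ in 5 of 6 lavages for complexes I, III, IV and V and in 4 of 6 for complex II. As a share of all counts, with no other scaling, all 83 genes of the symbol rule held 0.199 ± 0.034% in TREM-1- and 0.205 ± 0.023% in TREM-1+.

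The lavage a library came from moved these genes more than the fraction did. Over the 78 genes, the TREM-1- and TREM-1+ sums were 2532 and 2329 CPM in lavage 1, 2518 and 2176 in lavage 2, 1889 and 1765 in lavage 3, 1688 and 1666 in lavage 4, 1944 and 2000 in lavage 5, and 1939 and 1886 in lavage 6. The 4 libraries of lavages 1 and 2 (2176 to 2532 CPM) lay above the 8 of lavages 3 to 6 (1666 to 2000 CPM). In 76 of 78 genes the mean of lavages 1 and 2 was the higher, with a median difference of 0.36 on the log2 scale, where all genes had -0.04. Lavage took a median of 71.0% of each gene's variance (5 of 11 degrees of freedom) and fraction 3.73% (1 degree of freedom). For all genes tested these shares were 65.1% and 5.07%.

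The difference between fractions also varied by lavage. The median paired difference of the 78 genes was -0.09, -0.17 and -0.14 on the log2 CPM scale in lavages 1, 2 and 3, but 0.06, 0.05 and -0.04 in lavages 4, 5 and 6. Lower in TREM-1+ were 57, 64 and 49 of the 78 in the first 3 lavages, and 34, 34 and 45 in the others. The medians of all genes tested lay between -0.01 and 0.002 in every lavage. In lavages 3 to 6 alone the median fitted log2 fold change of the 78 genes was 0.002, while it was -0.13 in lavages 1 and 2 alone. A test of the difference between lavages was not run.

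**Figure D3:**
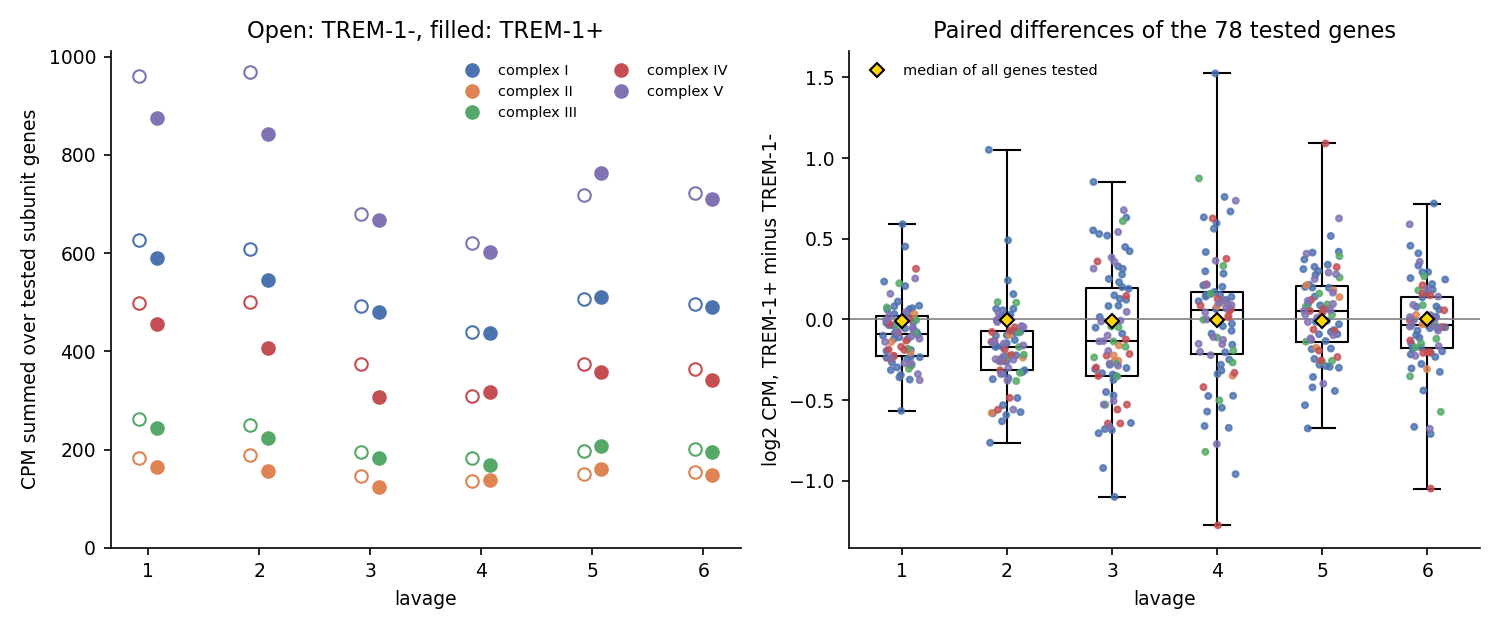
Left, CPM summed over the tested genes of each complex in each lavage (open, TREM-1-; filled, TREM-1+). Right, log2 CPM difference of each of the 78 genes in each lavage, with boxes for quartiles and whiskers for the range; the boxes of lavages 1 to 3 are centred below 0 and those of lavages 4 and 5 slightly above, while the diamonds, medians of all genes tested, stay near 0.

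Transcript levels of the subunit genes of 1 complex differed widely. Levels between genes were compared as CPM per kilobase of the annotated transcript, averaged over 12 libraries. The median was 12.7 in complex I, 23.5 in complex II, 19.8 in complex III, 40.7 in complex IV and 34.9 in complex V. Complex I ran from 4.32 (Ndufa5) to 36.6 (Ndufa7), and complex III from 9.50 (Uqcrq) to 47.3 (Uqcrh). Complex IV ran from 5.46 (Cox7a1) to 101.1 (Cox8a), followed by Cox6b1 at 87.8, Cox7c at 77.7 and Cox7a2l at 76.1. In complex V Atp5b stood at 101.3 and Atp5l at 75.2, with Atp5j2 at 7.46. The lowest value of complex V, 2.40 for Atp5g1, rested on an annotated transcript of 4715 bases, and which transcript these cells use was not tested. Cox8a and Atp5b, and likewise Cox7c and Cox7a2l, had close values, and differences in level between genes were not tested. By fraction, the medians per kilobase were 12.7 and 12.8 in complex I, 24.4 and 22.6 in complex II, 20.3 and 19.4 in complex III, 40.9 and 40.9 in complex IV, and 34.9 and 36.1 in complex V.

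**Figure D4:**
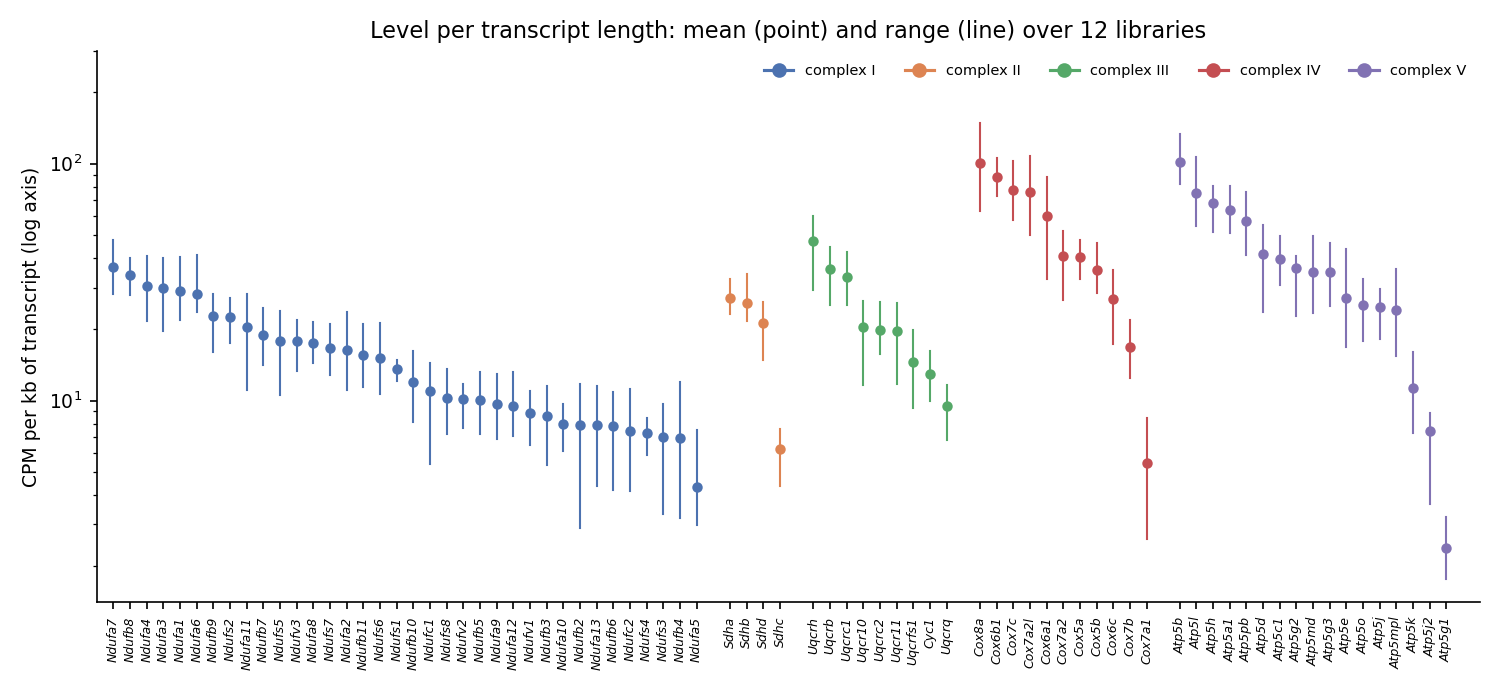
CPM per kilobase of transcript (log axis) of each tested gene with a known length, grouped by complex; points are means and lines the range over the 12 libraries. Within complexes IV and V the levels span over an order of magnitude, with Cox8a and Atp5b at the top.

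Promoters of respiratory chain genes are known for sites of the nuclear respiratory factor NRF1, of ETS family factors such as GABPA (also called NRF2), and of YY1. In the RefSeq promoter table of build GRCm38.p6, 69 of the 83 genes were matched. The 250 bases before each start were searched on both strands for GCATGCGC (NRF1), CCGGAAGT (ETS) and AAGATGGCG (YY1). The NRF1 letters were found in 8 of 69 genes (11.6%), against 3.32% of 17492 protein-coding genes. The ETS letters were in 3 of 69 (4.35%, all genes 4.26%) and the YY1 letters in 1 of 69 (1.45%, all genes 0.84%). Promoters of these genes had a median GC content of 56.2% and 14 CpG, those of all genes 55.6% and 10 CpG. All 7 called genes were matched, and of these only Uqcrh held any of these letters.

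Windows of 60 bases are shown for Uqcrh, for its complex III neighbour Uqcr11, and for the 2 genes nearest to the threshold with an NRF1 match, Sdhb and Cox6a1. They are written 5′ to 3′ on the gene's strand, with the matched letters in capitals. The Uqcrh match is the reverse complement of the ETS letters and lies 11 bases before the start. In Cox6a1 the capitals hold the NRF1 letters on both strands, overlapping.
Uqcrh, chr4:116075071-116075130, minus strand: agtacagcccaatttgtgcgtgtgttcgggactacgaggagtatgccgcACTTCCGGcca
Uqcr11, chr10:80406843-80406902, minus strand: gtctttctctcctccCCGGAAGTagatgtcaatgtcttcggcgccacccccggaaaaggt
Sdhb, chr4:140961202-140961261, plus strand: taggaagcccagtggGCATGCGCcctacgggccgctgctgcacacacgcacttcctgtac
Cox6a1, chr5:115349076-115349135, minus strand: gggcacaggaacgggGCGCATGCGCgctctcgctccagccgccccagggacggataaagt
Of the 12 genes with a match, 8 had log2 fold changes below 0 and 4 above. With NRF1 letters 5 lay below 0 (Sdhb -0.21, Cox6a1 -0.18, Ndufa6 -0.16, Atp5l -0.14, Ndufa11 -0.10) and 3 above (Atp5g2 0.13, Ndufa8 0.09, Atp5k 0.03). With ETS letters all 3 lay below 0 (Uqcrh -0.29, Uqcr11 -0.27, Atp5h -0.02), and Atp5j, with the YY1 letters, had 0.07. A match is no evidence of binding. The factor genes themselves were not called. Nrf1 had 87.4 ± 6.33 CPM among TREM-1- libraries and 95.8 ± 11.5 CPM among TREM-1+ libraries (0.13, edgeR adjusted p = 0.089), and it was called higher without lavage 2 (0.0345), with library totals alone (0.00291), with a mean of at least 5 CPM (0.0421) and among protein-coding genes alone (0.0471). Gabpa had 61.0 ± 8.10 and 60.2 ± 6.91 CPM (-0.02, 0.906), and Yy1 132 ± 13.7 and 128 ± 11.9 CPM (-0.04, 0.655).

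Genes around the chain were read from lists of their own. The shares of all genes to set beside them were 6.72% lower and 3.1% higher. With library totals alone these shares were 2.05% lower and 10.3% higher. Of 63 tested assembly factors, which build the complexes, 2 were called lower and 0 higher, with a median of 0.005 (0 lower and 1 higher with library totals alone). Both serve complex IV: the copper carrier Cox17, at 13.8 ± 1.93 and 10.8 ± 1.03 CPM (-0.35, edgeR adjusted p = 0.0414), and Coa5, at 108.8 ± 18.0 and 93.0 ± 13.7 CPM (-0.22, adjusted p = 0.00371). Of 24 electron carrier and transport genes 2 were lower and 0 higher (1 and 3 with library totals alone). These were Coq4, needed to make ubiquinone (36.7 ± 5.82 and 26.7 ± 5.61 CPM, -0.47, adjusted p = 2.02e-05), and the outer membrane channel Vdac2 (-0.20, adjusted p = 0.000593). Cytochrome c (Cycs) had 26.8 ± 3.12 and 28.6 ± 2.14 CPM (0.10, adjusted p = 0.544). Of 20 tricarboxylic acid cycle genes 1 was lower and 0 higher (1 and 1 with library totals alone), the lower one being the malate dehydrogenase Mdh2 (234 ± 24.1 and 194 ± 33.7 CPM, -0.28, adjusted p = 0.000192). Among 77 tested genes of the mitochondrial ribosome there were 2 calls lower and 1 higher, and of 27 genes of mitochondrial biogenesis 0 were called (3 higher with library totals alone). Of 15 redox genes 3 were lower, namely Txnrd1 (-0.40), Gpx1 (-0.30) and Gpx4 (-0.24), which reduce thioredoxin and peroxides. Under library totals the redox list had a median that turned from -0.11 to 0.02, with 2 lower and 2 higher. In that scaling Coq4, Mdh2, Txnrd1 and Gpx1 were still called lower, while Cox17, Coa5, Vdac2, Gpx4 and, outside the rule, Cox4i1 were not.

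Of 22 glycolysis genes, set beside them, 13 were called lower and 0 higher, with a median of -0.16; with library totals alone 2 were lower and 1 higher, with a median of -0.04. The enolase gene Eno1 (855 ± 137 and 697 ± 91.2 CPM, -0.29), the lactate dehydrogenase Ldha (282 ± 44.6 and 233 ± 27.5 CPM, -0.27) and the lactate exporter Slc16a3 (-0.23) were lower in 6 of 6 lavages. These genes were also read more deeply, with a median level of 109.7 CPM where the respiratory chain genes had 16.4 CPM, and the median standard errors were 0.04 and 0.10. The difference between the lists was not tested.

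Some subunit genes cannot be read cleanly. Of 82 genes checked in GENCODE vM21 transcripts, 17 shared at least 25% of their 31-base words with other genes, so their reads may be divided among copies. The highest shares were 87.7% for Atp5g2, 69.7% for Atp5l, 60.8% for Atp5h, 55.7% for Cox7c and 54.3% for Uqcrb, and their values are uncertain. Ndufb2 and Atp5o, which had the highest estimates of complexes I and V, shared 32.2% and 31.2%. Each also overlapped an exon of another gene on the same strand. Of the called genes Cox8a, Uqcrfs1 and Atp5d shared 0%, Ndufa1 2.06%, Uqcrh 16.4% and Cox7a2l 23.3%, whereas Ndufb1 had no matching entry. An exon of another gene overlapped 28 of the genes, among them Atp5d on the opposite strand. The use of strand in counting is not stated in the material at hand, and reads of such partners may not be separated.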

How the data were processed

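The deposited count table holds 1 estimated count per gene and library, made by the authors. Build GRCm39 and the tools edgeR 3.42.4, kallisto 0.45.0 and R 4.3.0 are listed in the submitters' processing notes, with no role for each. The deposited log2 CPM table, made by the authors, was recomputed from the counts to within 5e-09 for its 17934 genes, 78 of them respiratory chain genes. No per-sample column went unused.

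Estimated counts were rounded and tested in R 4.3.3 with edgeR 4.0.16 (TMM scaling, filterByExpr at a minimum count of 10 and minimum total of 15, robust quasi-likelihood F test, lavage as block, TREM-1+ minus TREM-1-). P-values were adjusted over all 18302 genes tested and called below 0.05. Standard errors and 95% intervals come from the fit. Paired differences use log2 CPM with a prior count of 1. Alternatives used limma 3.58.1 and DESeq2 1.42.0. The fit was tested on simulated data. The total counts set the precision of low genes.

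The series text states that both fractions came from 1 lavage. Deviations from group means correlated within pairs at 0.49, 0.50, 0.13, 0.37, 0.25 and 0.24, and lavage was the replicate block by design. The TREM-1+ library of lavage 3 correlated better with another lavage than with its own.

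The genes, lists and tests were chosen with earlier results of these data known. Named genes are those called, the largest estimate of each complex, subunit isoforms, Atpif1, Ndufa4, and up to 3 called genes per other list with the smallest p; further genes were named by role after their values were seen. Symbols follow the deposited table. Lengths, shared words and overlaps come from GENCODE vM21, and promoters from RefSeq GRCm38.p6, not the authors' build.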

Additional observations from a re-analysis of the deposited data

Results flagged for a closer look

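In groups of 6 libraries, the highest or lowest value was set against the gap to its neighbour (Dixon's test at 95%) for 73 named genes and the 6 summed levels (5 complexes and all). Of 158 groups checked, 2 held a library that stood apart, where chance at 1 in 20 gives 7.9. Ndufa1 reached 14.06 CPM in the TREM-1+ library of lavage 1, while the other 5 TREM-1+ libraries lay between 9.136 and 10.84 CPM. Coq4 reached 37.98 CPM in the TREM-1+ library of lavage 4, against 23.69 to 26.26 CPM in the others.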

How the results depend on the processing

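The 7 calls were the same genes with DESeq2, limma-voom, limma on the deposited log2 CPM, no low-count filter, a mean of at least 5 CPM, and protein-coding genes alone. At a mean of at least 5 CPM they were 9.59% of the respiratory chain genes tested (all genes 11.5% lower). Among protein-coding genes alone they were 8.97% (all genes 9.43%), and with no low-count filter 8.54% (all genes 4.49%). A transcript length offset with the replicate block kept 6 of the 6 that have a length (7.79% of respiratory chain genes, all genes 8.63% lower). Subunits outside the symbol rule made it 8 of 82 (9.76%, all genes 6.72% lower). With library totals alone 1 gene was lower, 1 higher, and the median was 0.069. With no replicate block 0 of 78 and 83 of all genes were called (1797 with it). Lavages 3 to 6 alone gave 3 calls (1168 over all genes), and leaving out lavages 3 and 4 gave 2. Lavages 1 and 2 alone gave 8 (10.3%, all genes 6.16% lower), of which 3 were shared. Without 1 lavage each, 3 to 7 genes were called lower (3.85% to 8.97%, all genes 5.31% to 6.23%). The count was 3 without lavage 4 and 4 without lavage 2 or lavage 5. Of 18 alternatives Cox8a was called in 17, Cox7a2l in 16, Uqcrfs1 in 13, Atp5d in 12, Uqcrh in 9 and Ndufa1 in 8; Ndufb1, which has no length for the offset, was called in 10. Cox8a was lost only without the block. No direction of a called gene reversed. Under alternatives, single genes were sorted by direction and call and the medians of complexes by their spread. Counts of calls per complex and list were sorted by a set ratio to the main count. By these rules 1875 values were unchanged, counts that stayed at 0 among them, 97 lost a call, 10 gained one and 119 moved further. Where these changes have no value beside them, the cause was not tested. Depth limits low genes, with intervals of 0.60 to either side for Cox7a1 and 0.47 for Ndufb2.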
